A study of Mus musculus with 24 samples.

Results

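The proteins of complement and of blood clotting circulate in plasma, and most of them are made by hepatocytes. The 42 genes described here were taken by name from a table of 34436 gene rows for mouse liver: 35 genes for factors known to be made by hepatocytes, 6 genes of macrophages and other myeloid cells (the C1q chains C1qa, C1qb and C1qc, properdin Cfp, and the receptors C3ar1 and C5ar1), and Cfd, the gene of factor D (adipsin), which is known as an adipocyte product. All 42 had a row, and all 42 passed the filter on low counts that left 12595 genes to test. The members were taken by gene name and not by a cutoff on expression, but they were chosen with earlier results of these data known.

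The livers came from wild-type C57BL/6 mice kept for 8 weeks on a diet begun at an age of 8 to 10 weeks, and total RNA was sequenced. Normal chow (NC) gave 4 libraries and high sucrose (HS) gave 5. High sucrose with 2% cholesterol (HS_Chol), for which the labels list 4 samples, gave 3 libraries analysed here, cholic acid alone (CA) gave 4, and 2% cholesterol with cholic acid (Chol_CA) gave 4. A sixth diet, high sucrose with both cholesterol and cholic acid, was not analysed here. The labels number the livers and say nothing more on whether they are separate animals, so p-values measure the spread between these libraries, which may be partly technical. The diet field of 1 HS sample reads normal chow; since columns could not be tied to single samples, all 5 HS libraries were kept. Libraries are named by the number in the deposited table, which starts at 0.

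Complement is a cascade of plasma proteins. C1q, which binds antibody on a surface, starts the classical pathway, mannose-binding lectins start the lectin pathway, and factors B and D drive the alternative pathway. All of them cleave C3, and the terminal components C5 to C9 then build a pore in the target membrane. Clotting runs through another cascade of proteases that ends with thrombin, which turns fibrinogen into fibrin, and it is held in check by antithrombin, protein C and protein S and undone by plasmin. Hepatocytes make most of these factors, while C1q comes mainly from tissue macrophages, in liver the Kupffer cells.

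Library totals ran from 6110484 to 10244277 reads. In 8 of the 20 libraries (NC library 3, HS libraries 0, 1 and 2, HS_Chol library 0, CA library 0, and Chol_CA libraries 0 and 1) long genes were lower relative to short ones than on average, a negative length trend, and each diet had at least 1 such library. For several results the value among the 12 others is given as well. Summed markers of hepatocytes, 12 genes with none at 0 on any diet, ran from 132269 to 156667 CPM (deposited reads of a gene per 1000000 reads, scaled by effective library size) on NC and from 76143.7 to 83865.7 CPM on Chol_CA. Alb, the albumin gene, was 1.16 ± 0.16 (log2, standard error) lower on Chol_CA than on NC (adjusted p = 1.96e-05).

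The 42 genes together took a mean of 4.24% ± 0.702 (SD, n = 4) of all deposited reads on NC and 5.05% ± 0.336 (SD, n = 4) on Chol_CA. Nearly all of it was hepatocyte-made: the 6 myeloid genes took 0.00546% ± 0.00178 on NC and 0.0921% ± 0.0639 on Chol_CA. The shares of all 42 overlapped, from 3.24% to 4.88% on NC and from 4.54% to 5.26% on Chol_CA. In CPM, which is scaled by effective library size, the 42 summed to a mean of 45924 on NC and a lower 43945 on Chol_CA. Levels of different genes were compared per kilobase of annotated exon (RPKM), with the exons of all annotated transcripts of a gene merged. Such a length can exceed that of the mRNA made in liver, which lowers the RPKM. On NC the highest members on that scale were the fibrinogen chains Fgg (2221 RPKM), Fga (2007 RPKM) and Fgb (1537 RPKM) with C3 (1613 RPKM), the protein on which all complement pathways meet. The next were kininogen Kng1 (755 RPKM), the precursor of bradykinin, and plasminogen Plg (731 RPKM), the precursor of plasmin. C1qa, C1qb and C1qc stood at 16.7, 16.5 and 7.6 RPKM, and the lowest member was C5ar1, the receptor of the C5a fragment, at 0.227 RPKM.

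The diets moved the members very unequally. Of the 35 hepatocyte-made genes, 20 had a highest diet mean less than 1.5 times the lowest, 9 lay between 1.5 and 2 times, and 6 reached 2 times or more. The smallest spread was that of F9, clotting factor IX, whose highest diet mean was 1.13 times the lowest. C6 had the widest spread of the hepatocyte-made genes, 5.77 times, followed by C9 (3.02), F11 (2.94), C8b (2.84), C8a (2.33) and Cfb (2.09). All 6 myeloid genes exceeded every one of these, from 10.8 times for Cfp to 16.2 times for C5ar1, each from NC to Chol_CA.

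**Figure D1:**
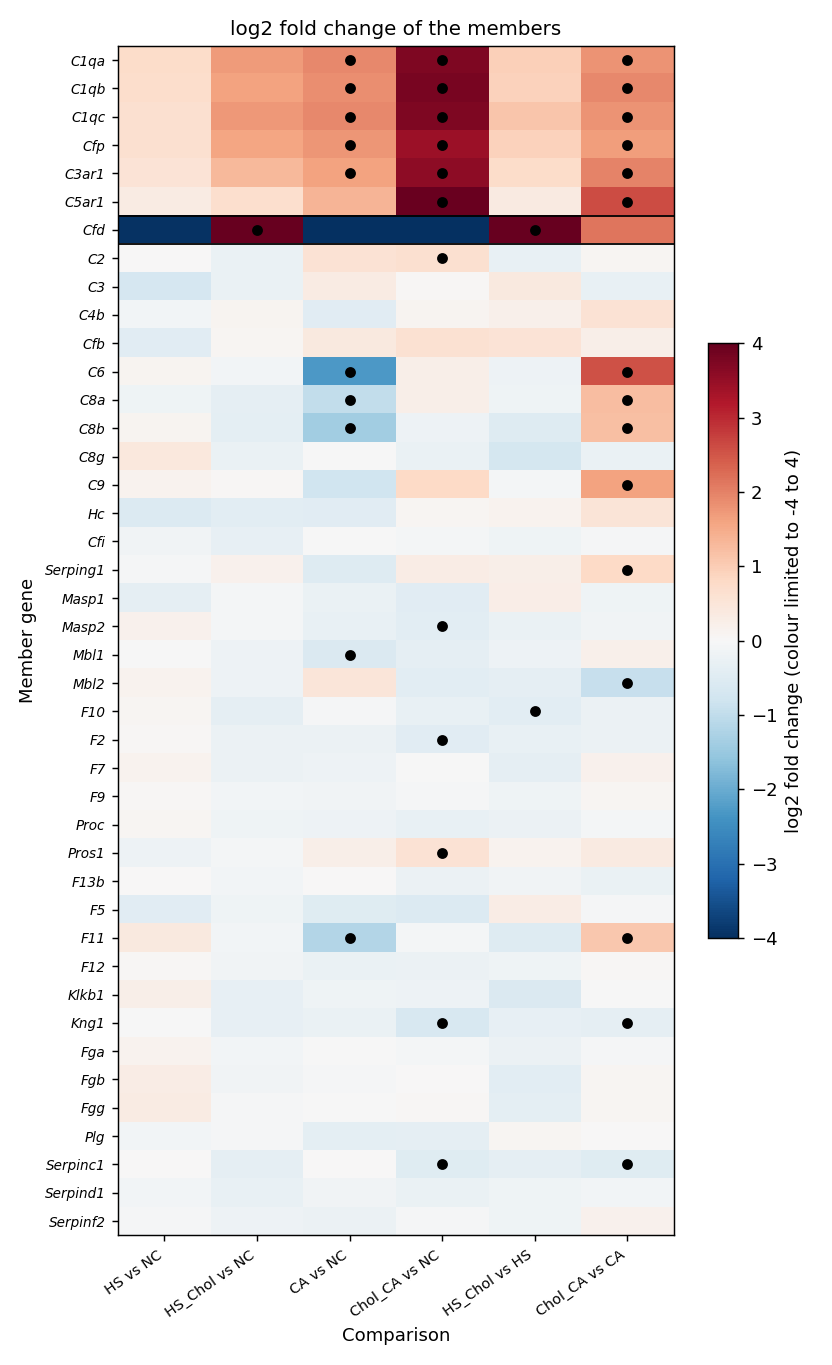
Log2 fold change of each of the 42 genes (rows) in 6 comparisons of pairs of diets (columns), in red where higher and blue where lower in the first-named diet; black dots mark genes past an adjusted p of 0.05, and lines separate the myeloid genes, Cfd and the hepatocyte-made genes. The 6 myeloid rows are red throughout and reach 3.43 to 3.96 in Chol_CA against NC, while the hepatocyte-made rows are mostly pale apart from C6, C8a, C8b, C9 and F11 in the columns with CA.

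C1q, the recognition molecule of the classical pathway, is built from the 3 chains encoded by C1qa, C1qb and C1qc, which lie side by side on chromosome 4. In GENCODE coordinates (GRCm38) C1qb lies at chr4:136880129-136886187, C1qc at chr4:136889804-136893065 and C1qa at chr4:136895917-136898803, all on the minus strand. Because the chains moved together, the bases upstream of their RefSeq start sites (GRCm38.p6) are shown for C1qb (chr4:136886201-136886450) and C1qc (chr4:136893066-136893164), minus strand, read 5′ to 3′ toward the gene. Bases that GENCODE counts as the first exon of the gene were left out. Capitals mark the letters GAGGAAGT on either strand, a form of the site of PU.1, a transcription factor of myeloid cells.
C1qb: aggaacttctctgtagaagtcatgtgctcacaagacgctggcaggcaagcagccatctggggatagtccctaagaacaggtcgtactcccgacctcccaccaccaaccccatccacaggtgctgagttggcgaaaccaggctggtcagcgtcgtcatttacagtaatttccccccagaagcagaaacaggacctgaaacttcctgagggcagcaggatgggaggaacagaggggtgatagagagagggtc
C1qc: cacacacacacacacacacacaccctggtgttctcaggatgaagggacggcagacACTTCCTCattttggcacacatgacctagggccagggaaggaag
The match in C1qc begins 195 bases before the RefSeq start, and C1qb had none within 250 bases. Of 27025 mouse promoters of that length, 2.44% held the same letters, as did 1 of the 5 myeloid members and 0 of the 26 hepatocyte-made members with a listed promoter. A match of letters is not a measured binding site.

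C1qa read 14, 15.6, 14.6 and 25.1 CPM in the 4 NC libraries and 27.3, 22.5, 18.5, 35.9 and 40.7 CPM on HS. On HS_Chol it read 80.1, 52.4 and 35.2 CPM. On CA it read 109.9, 63.5, 28.9 and 60.1 CPM, and on Chol_CA 257, 427, 117 and 118 CPM. Every Chol_CA library lay above every library of the other diets, every CA and HS_Chol library lay above every NC library, and HS overlapped NC. The NC library with the highest value, number 3, and the highest libraries of HS_Chol, CA and Chol_CA all had the negative length trend. HS went the other way: its negative-trend libraries read 27.3, 22.5 and 18.5 CPM, below the others at 35.9 and 40.7 CPM.

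C1qa rose by 3.73 ± 0.46 (log2) from NC to Chol_CA (adjusted p = 6.35e-06), C1qb by 3.80 ± 0.48 (adjusted p = 9.58e-06) and C1qc by 3.73 ± 0.47 (adjusted p = 8.98e-06). Among the libraries with a positive length trend alone the rises were smaller, 2.98, 3.14 and 2.99, and still past the threshold. With cholic acid alone the chains rose by 1.92 ± 0.43 (C1qa, adjusted p = 0.00676), 1.86 ± 0.46 (C1qb, adjusted p = 0.0112) and 1.92 ± 0.45 (C1qc, adjusted p = 0.00828) against NC. Cholesterol added to cholic acid raised them again, by 1.81 ± 0.42 (C1qa), 1.94 ± 0.44 (C1qb) and 1.81 ± 0.43 (C1qc) from CA to Chol_CA (adjusted p = 0.00411, 0.00383 and 0.00506), or by 1.20, 1.33 and 1.14 among the libraries with a positive trend.

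On HS_Chol the chains missed the threshold against NC although no library overlapped: the differences were 1.69 ± 0.45 for C1qa (adjusted p = 0.0562), 1.62 ± 0.48 for C1qb (adjusted p = 0.088) and 1.75 ± 0.47 for C1qc (adjusted p = 0.0565). C1qa passed under 6 of 16 alternative analyses, C1qc under 7 and C1qb under 1. Against HS, the matching diet without cholesterol, the differences were 0.95 ± 0.42 for C1qa (adjusted p = 0.339), 0.92 ± 0.45 for C1qb (adjusted p = 0.387) and 1.12 ± 0.44 for C1qc (adjusted p = 0.25), and the libraries overlapped. Whether cholesterol raised C1q more with cholic acid than with sucrose was tested as a difference of the differences, which was 0.86 ± 0.60 for C1qa and did not pass (adjusted p = 0.424).

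The 3 chains kept nearly the same ratio to each other on every diet. The log2 ratio of C1qa to C1qb reads ran from -0.21 to 0.23 over the 20 libraries, and its diet means from -0.12 on Chol_CA to 0.07 on HS_Chol. Fewer cells of a type and less RNA per cell cannot be told apart in RNA from whole tissue, and markers of macrophages moved with C1q. The 16 macrophage markers summed to between 138 and 224 CPM on NC, between 186 and 425 CPM on HS, between 321 and 1024 CPM on HS_Chol, between 325 and 963 CPM on CA and between 1573 and 5259 CPM on Chol_CA. All 16 rose from NC to Chol_CA, where 15% of all genes tested were called higher, and 12 from NC to CA, where 5.22% were. From NC to HS_Chol 4 rose (Csf1r, Emr1, Cd5l and Mpeg1), where 1.71% of all genes did. The part of macrophage number in the C1q result was not tested.

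The ratio of C1q to single macrophage markers, which was not tested, differed by marker. The log2 ratio of summed C1q to Csf1r, the receptor of a macrophage growth factor, was 1.52 ± 0.38 (SD, n = 4) on NC and 1.86 ± 0.39 (SD, n = 4) on Chol_CA. Its ratio to Cd68, a lysosomal protein of macrophages, was 3.46 ± 0.33 on NC and 2.84 ± 0.21 on Chol_CA, and both of these ratios overlapped between the diets. The ratio to Clec4f, a lectin of resident Kupffer cells, was 0.84 ± 0.14 on NC, 1.07 ± 0.17 on CA and 2.17 ± 0.51 on Chol_CA, and no Chol_CA library overlapped NC or CA. On its own, Cd68 was 4.36 ± 0.47 and Clec4f 2.29 ± 0.33 (log2) higher on Chol_CA than on NC.

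Cfp encodes properdin, which stabilises the C3 convertase of the alternative pathway and is made by myeloid cells. It read 5.87, 5.95, 6.48 and 13.2 CPM on NC, 42.7, 26.6, 12.7 and 25.6 CPM on CA, and 92.4, 166, 39.5 and 41.6 CPM on Chol_CA. The Chol_CA libraries lay above all NC libraries, and CA library 2 fell just under NC library 3. The rise was 3.43 ± 0.47 (log2) from NC to Chol_CA (adjusted p = 1.97e-05; 2.72 among the libraries with a positive trend) and 1.77 ± 0.46 from NC to CA (adjusted p = 0.0159). The CA call was lost without NC library 0, 1 or 2 or CA library 0, with adjusted p between 0.0521 and 0.0634. From CA to Chol_CA the rise was 1.66 ± 0.43 (adjusted p = 0.00835), lost without Chol_CA library 1 (1.11, adjusted p = 0.053) and 0.90 among the libraries with a positive trend.

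C3ar1 and C5ar1 encode the receptors for the anaphylatoxins C3a and C5a, the fragments that call in and activate leukocytes. C3ar1 read 1.29, 1.11, 1.17 and 1.42 CPM on NC, 5.99, 3.65, 2.76 and 2.87 CPM on CA and 19.3, 17.5, 12.3 and 11.6 CPM on Chol_CA, with no overlap between any of these diets. It rose by 1.60 ± 0.35 (log2) on CA (adjusted p = 0.00524) and by 3.59 ± 0.33 on Chol_CA against NC (adjusted p = 4.76e-07), and by 1.99 ± 0.29 from CA to Chol_CA (adjusted p = 0.000121). C5ar1 had few reads: 0.143, 0.415, 0.777 and 0.993 CPM on NC, where 1 read is worth between 0.13 and 0.143 CPM. On Chol_CA it read 12.3, 18.6, 4 and 2.7 CPM, all above NC, a rise of 3.96 ± 0.65 (adjusted p = 0.000115; 2.83 among the libraries with a positive trend). On CA it read 3.29, 1.06, 1.08 and 0.743 CPM, and the difference of 1.36 ± 0.71 from NC did not pass (adjusted p = 0.281). Markers of neutrophils, which carry the C5a receptor, summed to at most 2.7 CPM over 8 genes on NC and to between 11.8 and 76.7 CPM on Chol_CA; their part in C5ar1 was not tested.

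**Figure D2:**
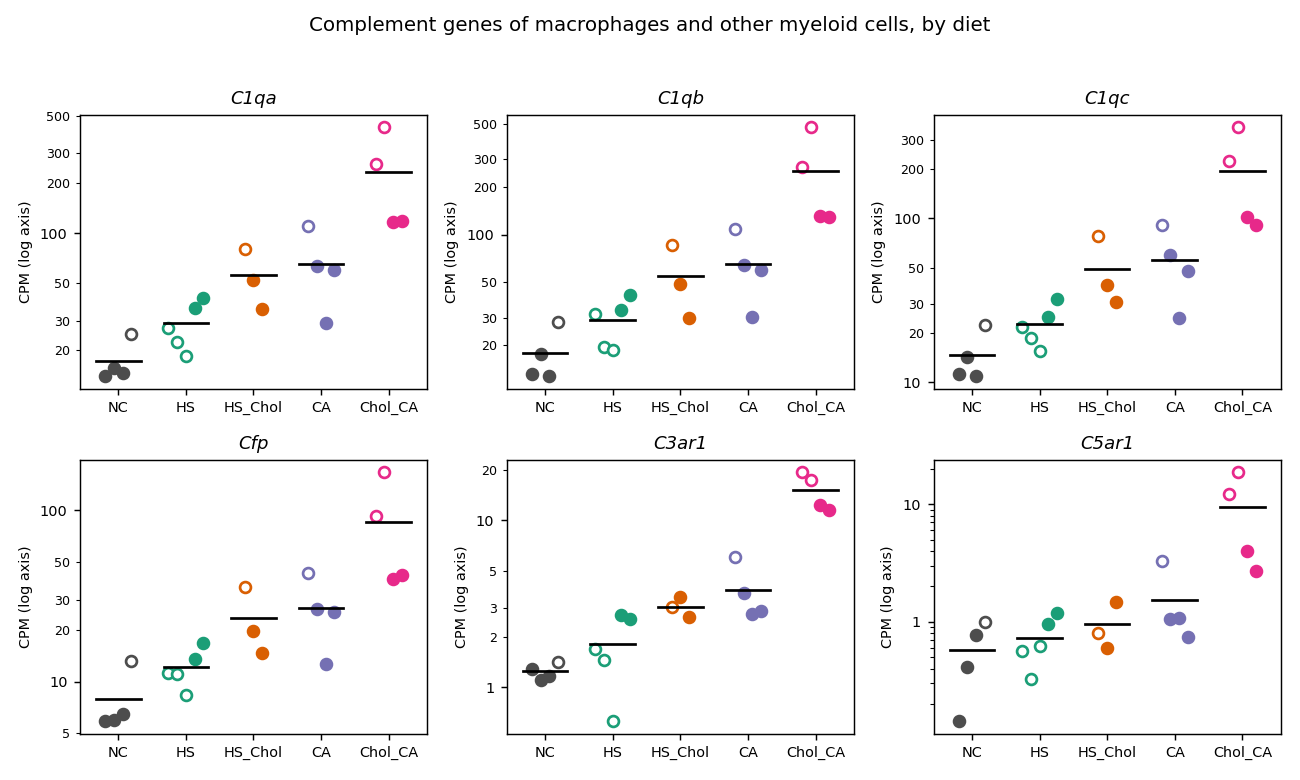
CPM (log axis) of the 6 myeloid genes in each library, by diet; open circles are libraries with a negative length trend, filled circles the others, and bars the diet means. In each panel Chol_CA has the highest mean, with C1qa from 117 to 427 CPM against 14 to 25.1 CPM on NC, and within Chol_CA the open circles lie above the filled ones.

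Cfd was read almost only on HS_Chol, and there in some libraries more than others. Factor D is the protease that activates factor B in the alternative pathway. The deposited reads were 4, 1, 1 and 27 on NC, 1, 0, 0, 1 and 0 on HS, and 690, 483 and 17 on HS_Chol (110.0, 72.9 and 2.79 CPM). All 4 CA libraries held 0 reads, and Chol_CA held 0, 2, 0 and 0. Thus 2 of the 3 HS_Chol libraries carried almost all reads of the gene, and HS_Chol library 2, at 2.79 CPM, fell below NC library 3, at 3.83 CPM.

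In the fit Cfd was 5.73 ± 0.92 (log2) higher on HS_Chol than on NC (adjusted p = 0.00125) and 9.68 ± 1.21 higher than on HS (adjusted p = 7.3e-05). It was the only member called higher in each of these comparisons, against 1.71% and 1.6% of all genes tested. The call was lost among libraries with a positive length trend, where HS_Chol keeps 2 libraries (7.04, adjusted p = 0.141 against NC, and 8.78, adjusted p = 0.278 against HS). Without NC library 3 the difference from NC was 7.73, and without HS_Chol library 0 it was 5.01. From summed reads, the HS_Chol level was 55.0 times that of NC (95% interval 39.0 to 80.3, exact, for counting error only) and 1052 times that of HS (291 to 8697). Against CA, which held 0 reads, the ratio was 764 with 3 reads over the 4 libraries taken as the floor. The exact 95% interval for the ratio to CA begins lower, at 620.2.

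Other genes of adipocytes did not accompany Cfd in proportion. Adipoq (adiponectin) and Plin1 (perilipin of the fat droplet) held 0 reads in HS_Chol libraries 0 and 2 and 2.57 and 2.11 CPM in library 1, so the library with the most Cfd had neither. Cidea, a further fat droplet gene, read 2.23, 1.51 and 0.328 CPM in HS_Chol libraries 0, 1 and 2, the same order as Cfd. All 8 adipocyte markers together summed to between 0.492 and 7.85 CPM on HS_Chol and to at most 0.853 CPM in any library of the other diets; none had enough reads to be tested.

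**Figure D3:**
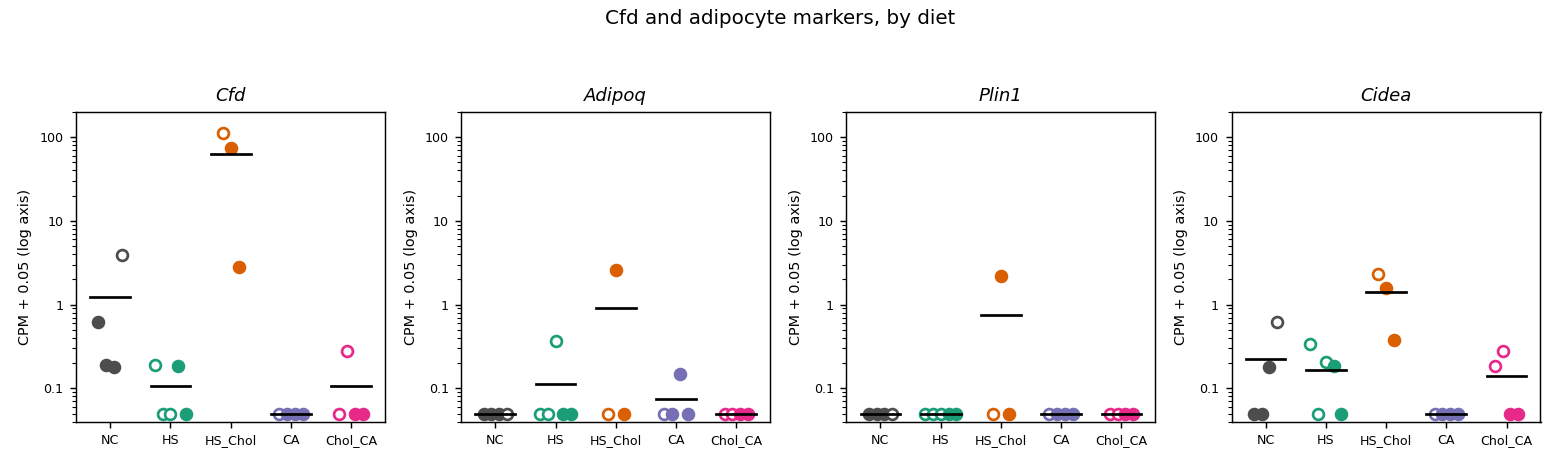
CPM plus 0.05 (log axis, so that 0 can be drawn) of Cfd and of the adipocyte markers Adipoq, Plin1 and Cidea in each library, by diet; open circles are libraries with a negative length trend and bars the diet means. Cfd reaches 110.0 and 72.9 CPM in 2 HS_Chol libraries, while Adipoq and Plin1 exceed 2 CPM in HS_Chol library 1 only.

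The clearest movement among hepatocyte-made genes was a fall in part of the terminal pathway and in F11 on cholic acid alone. In CA against NC, 5 members were called higher, all myeloid, and 5 lower, all hepatocyte-made, where 5.22% and 4.61% of all genes tested were called. By ranges alone, 5 members lay wholly above NC and 6 wholly below, where 7.23% and 6.39% of all genes did. The median log2 fold change was -0.21 over the 35 hepatocyte-made genes and 0.01 over all genes.

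C6 encodes the first component that joins C5b when the membrane pore is assembled. It read 397, 322, 316 and 206 CPM on NC and 154, 52.6, 27.1 and 20.7 CPM on CA. All CA libraries lay below all libraries of the other diets, but they were spread widely, with the negative-trend library 0 the highest. C6 fell by 2.29 ± 0.45 (log2; adjusted p = 0.00266), by 3.22 without CA library 0, and by 3.37 among libraries with a positive trend. On Chol_CA it was back at 379, 304, 393 and 393 CPM, a rise of 2.53 ± 0.46 from CA (adjusted p = 0.000698; 3.46 without CA library 0) and a difference of 0.24 ± 0.43 from NC that did not pass (adjusted p = 0.734). On HS and HS_Chol it ran from 180.4 to 388 CPM.

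F11, factor XI, which amplifies thrombin formation, followed the same course with less spread. It read 89.7, 75.5, 67.2 and 86.7 CPM on NC, 45.2, 40.3, 28.4 and 29.2 CPM on CA and 80.5, 64.5, 74.2 and 84.3 CPM on Chol_CA. No CA library overlapped any library of another diet. F11 fell by 1.16 ± 0.18 (log2) on CA (adjusted p = 0.000247), rose by 1.09 ± 0.18 from CA to Chol_CA (adjusted p = 0.000313), and kept both calls in all 17 alternative analyses of each comparison.

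Since C6 and F11 fell together, the bases upstream of their RefSeq starts are shown (GRCm38.p6; C6 at chr15:4726960-4727174, plus strand, without the bases of its first GENCODE exon, and F11 at chr8:45262032-45262281, minus strand). Capitals mark TTGCNNAA on either strand, a form of the C/EBP site.
C6: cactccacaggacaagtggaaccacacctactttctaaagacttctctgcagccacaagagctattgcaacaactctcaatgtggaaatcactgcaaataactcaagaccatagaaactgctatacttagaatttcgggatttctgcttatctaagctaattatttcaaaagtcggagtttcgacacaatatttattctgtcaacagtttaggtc
F11: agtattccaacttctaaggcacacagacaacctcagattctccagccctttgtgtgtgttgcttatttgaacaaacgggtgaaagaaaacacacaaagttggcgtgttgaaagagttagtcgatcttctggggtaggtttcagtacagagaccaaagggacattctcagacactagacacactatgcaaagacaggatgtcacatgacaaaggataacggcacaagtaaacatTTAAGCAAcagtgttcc
F11 held these letters 17 bases before its start and C6 did not. They were found in 9.58% of all promoters and in 7 of the 32 members with a listed promoter (C3, C9, F9, F11, Fga, Fgb and Klkb1). GGTCANTGA, an inverted repeat of the kind bound by the bile acid receptor FXR, was in none of the 32 and in 0.666% of all promoters, and CAAAGTCCA, a form of the HNF4 site, was in none of the 32 and in 0.377% of all. GTTAATNAT, a form of the HNF1 site, was in 3 of the 32 (Hc, F13b and Fga) and in 0.781% of all. A motif lying outside these windows would not be seen.

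The pore components C8a and C8b also fell on CA, while C9, C8g and Hc did not pass. C8a, the alpha chain of C8, read 1105, 980.3, 979 and 663 CPM on NC and 712, 602, 302 and 255 CPM on CA, and fell by 0.99 ± 0.27 (log2; adjusted p = 0.0203); the groups overlapped through NC library 3. That call was lost without NC library 0 or 2 or CA library 2 or 3 (adjusted p from 0.0509 to 0.0716). C8b, the beta chain, read 646, 595, 526 and 334 CPM on NC and 353, 239, 118 and 84.9 CPM on CA, a fall of 1.40 ± 0.35 (adjusted p = 0.0119; 2.00 among libraries with a positive trend). For C8a and C8b alike, CA libraries 2 and 3 were far lower than libraries 0 and 1. C9, which polymerises into the ring of the pore, read 769, 559.8, 519.8 and 329 CPM on NC and 521, 447, 121 and 153 CPM on CA, and its difference of -0.81 ± 0.36 did not pass (adjusted p = 0.192).

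From CA to Chol_CA these genes rose: C8a by 1.22 ± 0.27 (adjusted p = 0.0028), C8b by 1.19 ± 0.34 (adjusted p = 0.0173) and C9 by 1.60 ± 0.37 (adjusted p = 0.00425). The C8b call was lost without CA library 2 or 3 or Chol_CA library 3 (adjusted p from 0.0549 to 0.0884). On Chol_CA, C9 read 935, 768, 944 and 1108 CPM, all above every CA library; its difference of 0.79 ± 0.36 from NC did not pass (adjusted p = 0.13). C8g, the gamma chain, and Hc, complement C5, were called in no comparison. Hc ran from 435 to 1529 CPM over the 20 libraries and stood lower, by a log2 difference of 0.72, where the length trend was negative.

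**Figure D4:**
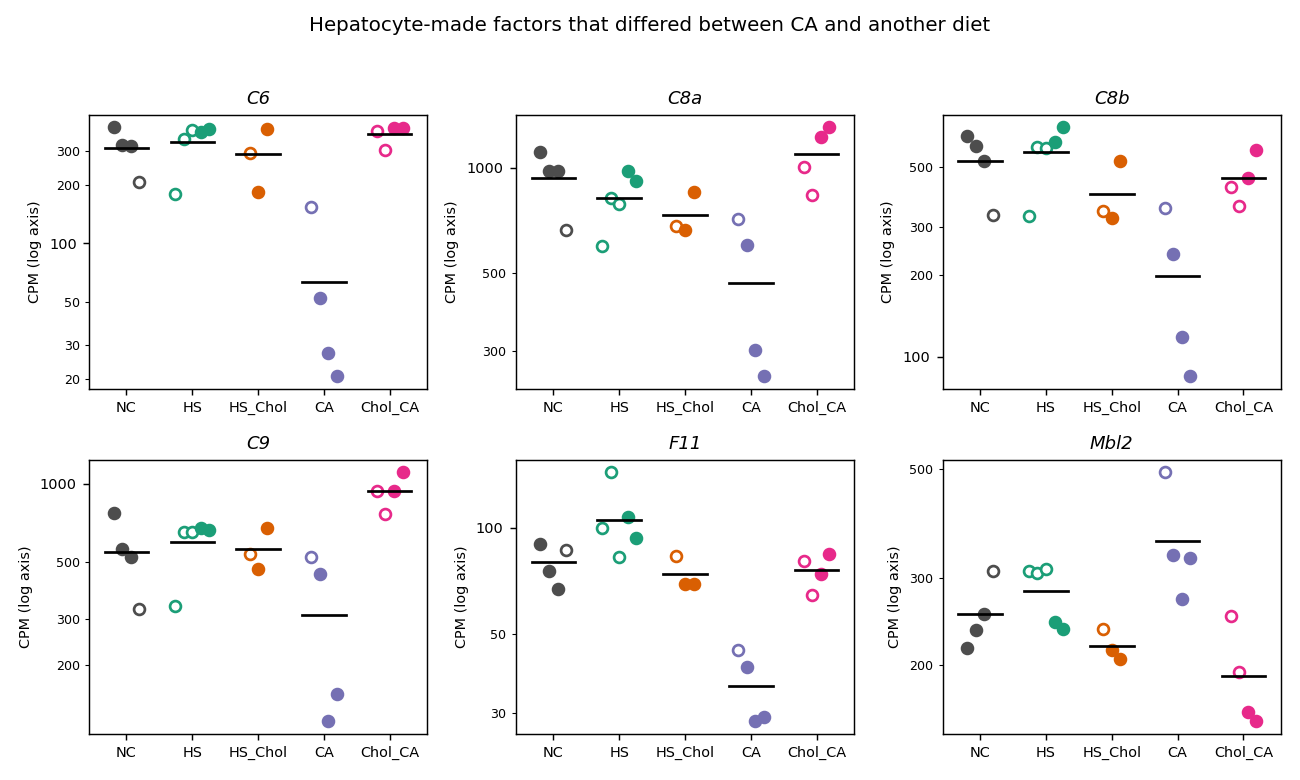
CPM (log axis) of C6, C8a, C8b, C9, F11 and Mbl2 in each library, by diet; open circles are libraries with a negative length trend, filled circles the others, and bars the diet means. C6 and F11 on CA lie below all other libraries, CA library 0 (open) is the highest CA point of each panel, and Mbl2 is lowest on Chol_CA.

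For 5 members the effect of cholesterol differed between cholic acid and sucrose. The difference between the 2 cholesterol effects (Chol_CA against CA minus HS_Chol against HS) was 2.75 ± 0.65 (log2) for C6 (adjusted p = 0.0145), 1.59 ± 0.26 for F11 (adjusted p = 0.000607) and 1.69 ± 0.50 for C8b (adjusted p = 0.0481). It was 1.38 ± 0.38 for C8a (adjusted p = 0.0369) and 0.53 ± 0.15 for F7, factor VII, which starts clotting with tissue factor (adjusted p = 0.045). For C9 it was 1.69 ± 0.53 (adjusted p = 0.0671) and did not pass. The first 5 were the members called higher, against 2.47% of all genes tested, and none was called lower, against 3.53%; DESeq2 called 1 lower, and no member had a negative difference at an unadjusted p under 0.05. F11 passed in all 25 alternative analyses and C6 in all but 1 (without HS_Chol library 1, adjusted p = 0.0615), while C8b lost its call in 17 of 25, F7 in 15 of 25 and C8a in 13 of 24. Among libraries with a positive length trend the F7 value was 0.26 (adjusted p = 0.276).

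Of the 4 lectin pathway genes Mbl1, Mbl2, Masp1 and Masp2, 1 was called in CA against NC (Mbl1) and 1 in Chol_CA against CA (Mbl2). In Chol_CA against NC 1 was called (Masp2). Each was called lower, where 4.61%, 7.8% and 9.35% of all genes tested were. Mbl1 and Mbl2 encode the mannose-binding lectins A and C. Mbl1 read 126, 139, 143 and 160.2 CPM on NC and 129, 94.8, 81.5 and 74.3 CPM on CA, and fell by 0.58 ± 0.16 (log2; adjusted p = 0.02), a call lost without NC library 2 or 3 or CA library 2 or 3 (adjusted p from 0.0508 to 0.0823). Mbl2 read 493, 335, 272 and 329.6 CPM on CA against 252, 193, 161 and 154 CPM on Chol_CA, a fall of 0.91 ± 0.19 from CA to Chol_CA (adjusted p = 0.00171). The Mbl2 difference of CA from NC was 0.49 ± 0.18 and did not pass (adjusted p = 0.11). Masp2, the protease that mannose-binding lectins activate, fell by 0.43 ± 0.12 from NC to Chol_CA (adjusted p = 0.00921), with 1817 of its exon bases shared with Tardbp on the opposite strand. Masp1 was called in no comparison. Serping1, the C1 inhibitor, read 875, 836, 469 and 458 CPM on CA and 1294, 1113, 1175 and 1033 CPM on Chol_CA, a rise of 0.81 ± 0.19 (adjusted p = 0.00469).

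Of the convertase components C2, C3, C4b and Cfb only C2 was called. That call was in Chol_CA against NC, where 15% of all genes tested were called higher. C3 read 8338, 10747, 9919.6 and 4180.1 CPM on NC and 10202, 7171, 8774 and 7930.2 CPM on Chol_CA, a difference of 0.04 ± 0.29 (adjusted p = 0.941), or -0.22 (adjusted p = 0.283) without the negative-trend libraries. NC library 3 stood far below the other NC libraries. C2, the protease of the classical convertase, was 0.64 ± 0.22 higher on Chol_CA than on NC (adjusted p = 0.042); the groups overlapped, 8 of 16 alternative analyses lost the call (among them without NC library 0, 1 or 2 or Chol_CA library 0 or 1, adjusted p from 0.0709 to 0.234, and only positive length trends, 0.24, adjusted p = 0.22), and 161 of its exon bases are shared with Zbtb12 on the other strand. C4b differed by 0.57 ± 0.20 between Chol_CA and CA (adjusted p = 0.0518); reads of C4b and of its near-identical neighbour C4a may have been split in counting. C4a itself read 13.7, 8.3, 8.29 and 16.6 CPM on NC and 2.23, 1.18, 1.48 and 0.849 CPM on CA, and fell by 3.02 ± 0.51 (adjusted p = 0.000617). Cfi, the protease that inactivates C3b and C4b, was called nowhere.

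Fibrinogen is the precursor of the clot protein fibrin. The highest diet mean was 1.19 times the lowest for Fga, 1.30 times for Fgg and 1.34 times for Fgb. The chains Fga (chr3:83026076-83033627), Fgb (chr3:83040141-83049863) and Fgg (chr3:83007724-83015049) lie together on chromosome 3 and were called in no comparison. Fga read 6302, 7168, 5976 and 4722 CPM on NC, 5734, 7463, 4940.4 and 5527 CPM on CA and 5759, 4223, 5947 and 6729 CPM on Chol_CA. The ranges of these diets overlapped broadly. From NC to Chol_CA the 3 chains differed by -0.09 ± 0.20 (Fga), 0.02 ± 0.15 (Fgb) and 0.05 ± 0.16 (Fgg), and from NC to CA by -0.03 ± 0.20, -0.04 ± 0.15 and -0.02 ± 0.16. Their highest values were on HS, where Fgg was 0.32 ± 0.16 above NC (adjusted p = 0.462).

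The log2 ratio of Fgg to Fgb reads ran from -0.38 to -0.20 over the 20 libraries, and its diet means from -0.33 on NC to -0.26 on HS_Chol. Ratios with Fga varied more, from -0.30 to 0.16 for Fga to Fgb and from -0.02 to 0.45 for Fga to Fgg. The upstream bases of Fga and Fgb are shown because fibrinogen is a textbook target of the acute phase factors STAT3 and C/EBP, and many acute phase genes moved on Chol_CA (GRCm38.p6; Fga at chr3:83025903-83026075, plus strand, without the bases of its first GENCODE exon, and Fgb at chr3:83049864-83050113, minus strand). Capitals mark TTCNNNGAA (STAT) and TTGCNNAA (C/EBP), on either strand.
Fga: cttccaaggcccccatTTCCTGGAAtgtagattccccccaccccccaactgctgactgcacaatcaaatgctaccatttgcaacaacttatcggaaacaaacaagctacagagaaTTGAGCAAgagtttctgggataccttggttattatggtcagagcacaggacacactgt
Fgb: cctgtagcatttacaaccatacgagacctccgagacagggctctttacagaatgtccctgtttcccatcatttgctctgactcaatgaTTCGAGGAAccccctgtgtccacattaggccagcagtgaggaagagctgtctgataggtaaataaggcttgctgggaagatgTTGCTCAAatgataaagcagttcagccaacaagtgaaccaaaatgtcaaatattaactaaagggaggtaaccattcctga
Fga held the STAT letters 234 and the C/EBP letters 135 bases before its start, and Fgb held them 162 and 80 bases before. Fgg, searched over 250 bases in the same way and not shown, held neither. The STAT letters were in 7.1% of all promoters and in 6 of the 32 member promoters (C8a, Masp2, F9, Fga, Fgb and Pros1). Of 20 other acute phase genes, 14 rose from NC to Chol_CA and none fell, where 15% and 9.35% of all genes tested did; Saa2, a serum amyloid A gene, rose by 5.82 ± 0.97 (log2; adjusted p = 0.000145). No fibrinogen chain was called with them.

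On Chol_CA against NC the members called were 8 higher and 4 lower, where 15% and 9.35% of all genes tested were called; the 6 myeloid genes made up most of the first. In ranges, 8 members lay wholly above NC and 7 wholly below, against 14.2% and 9.59% of all genes. Of the genes grouped as hepatocyte-made, the 2 called higher were C2 and Pros1. Which cells of the liver their reads came from was not tested. Pros1 encodes protein S, the cofactor of the anticoagulant protein C, and read 65.5, 61.3, 58.9 and 48.8 CPM on NC and 97.2, 77.8, 85.1 and 89.7 CPM on Chol_CA. No library overlapped, and the rise was 0.58 ± 0.13 (log2; adjusted p = 0.00241).

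The 4 that fell were Kng1, Serpinc1, F2 and Masp2. F2 encodes prothrombin and read 1897, 1913, 1835 and 1819 CPM on NC and 1443, 1263, 1339.7 and 1394 CPM on Chol_CA, a fall of 0.46 ± 0.10 (adjusted p = 0.0024). Serpinc1 encodes antithrombin, the inhibitor of thrombin, and read 2372, 2458, 2442 and 2761 CPM on NC against 2069, 1482, 1777 and 1872 CPM, a fall of 0.48 ± 0.13 (adjusted p = 0.00774). Of the exon bases of Serpinc1, 2942 are shared with genes on the opposite strand. Kng1 fell by 0.63 ± 0.12 (adjusted p = 0.000401), from 2412, 2454, 2417 and 2535 CPM to 1711, 1489, 1494 and 1661 CPM; its near-identical copy Kng2 could share reads. In all 3 genes every Chol_CA library lay below every NC library. Against CA, Serpinc1 fell by 0.50 ± 0.13 (adjusted p = 0.00743) and Kng1 by 0.37 ± 0.12 (adjusted p = 0.0262), the latter lost without CA library 1 or Chol_CA library 1 or 2 (adjusted p from 0.0712 to 0.0944). In that comparison 12 members were called higher and 3 lower, against 13.4% and 7.8% of all genes tested, and 10 lay wholly above CA and 3 wholly below, against 12.1% and 7.25%.

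Sucrose alone changed no member past the threshold. In HS against NC, edgeR called 0 of 42 higher and 0 lower, where 0.214% and 0.437% of all genes were called, and DESeq2 also called 0. At an unadjusted p under 0.05 there were 3: Cfd and C3 with lower and F11 with higher values on HS. How many of all genes reached that unadjusted level was not counted. The C3 difference was -0.66 ± 0.27 (log2; adjusted p = 0.371), with HS libraries 0, 1 and 2, all of negative length trend, at 3705, 4339.9 and 3821 CPM and libraries 3 and 4 at 7575 and 6848 CPM.

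Sucrose with cholesterol took few hepatocyte-made genes past the threshold, though most of them had lower values. In HS_Chol against NC none of the 35 was called in either direction, and 31 of the 35 had a negative log2 fold change with a median of -0.16; among all genes 0.564% were called lower and the median fold change lay near 0. By ranges alone, 5 members (C1qa, C1qb, C1qc, Cfp and C3ar1) lay wholly above NC, where 6.8% of all genes did, and 6 (Serpinc1, Serpinf2, Kng1, F2, F7 and F10) wholly below, where 5.58% did. Of these 6, none passed the test. At an unadjusted p under 0.05, 6 members had higher and 4 lower values, and the share of all genes at that level was not counted. DESeq2 called 2 members lower, and 150 of all genes. Against HS, F10, factor X, read 387, 379.8 and 440.4 CPM against 524, 621, 563, 517 and 498 CPM and fell by 0.44 ± 0.11 (adjusted p = 0.0498). It was the only member called lower there, against 0.651% of all genes. By ranges, 9 members, all hepatocyte-made, lay wholly below HS and 2 wholly above, where 5.45% and 6.32% of all genes did. Of the 35 hepatocyte-made genes, 26 had a negative log2 fold change against HS. Their median was -0.19, against 0.01 over all genes. At an unadjusted p under 0.05, 10 members were lower and 3 higher than on HS. The share of all genes at that unadjusted level was not counted, so these numbers have no background beside them. For F10, 14 of 17 alternative analyses lost the call; among libraries with a positive length trend the difference was -0.31 (adjusted p = 0.229).

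The remaining clotting factors were called in no pair of diets: F5, F7, F9, F12, F13b, Proc (protein C), Klkb1 (plasma prekallikrein), Plg, Serpind1 (heparin cofactor II) and Serpinf2 (the inhibitor of plasmin). Several of them differed more between libraries of 1 diet than between diets. Klkb1 read 19.7, 18.1, 19.3 and 39.9 CPM on NC and 33.1, 43.6, 33.7, 18.2 and 14.5 CPM on HS, high in exactly the libraries with a negative length trend. F5, the cofactor of factor Xa, read 1093, 988, 1020.1 and 378 CPM on NC and was low in those libraries. With the diets removed, the negative-trend libraries stood apart by -1.25 (log2) for Masp1, -0.85 for F5 and -0.58 for C3, and by 0.73 for Klkb1 and 0.65 for C1qc. For Klkb1 and for C1qc, the negative-trend libraries were all higher on 4 diets and all lower on 1. Masp1, F5 and Plg were lower in every negative-trend library than in any other library of the same diet on all 5 diets.

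**Figure D5:**
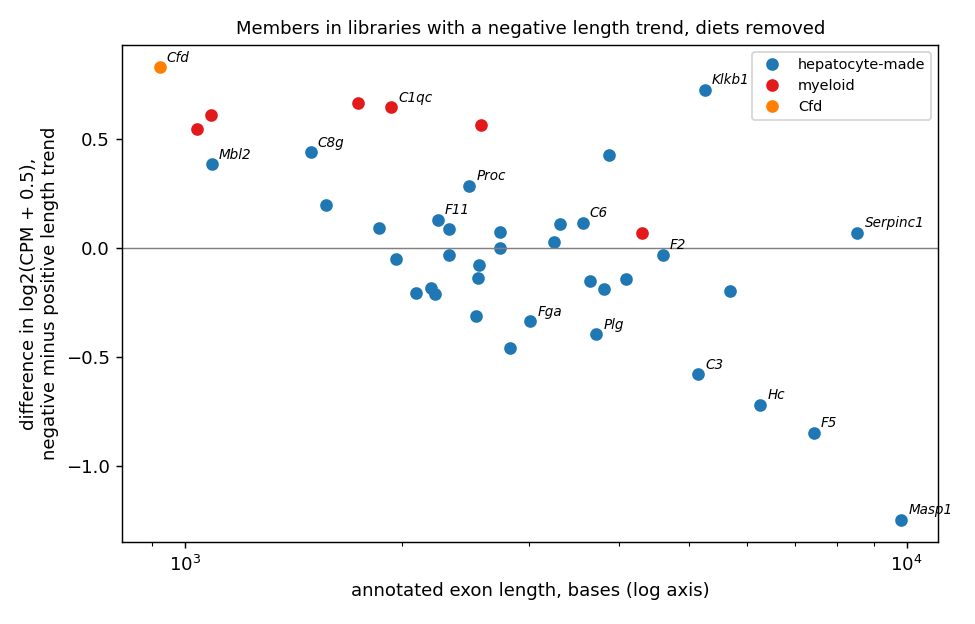
Difference in log2(CPM + 0.5) between libraries with a negative and a positive length trend, with diet means removed (vertical axis), against annotated exon length in bases (log axis) for the 42 genes, coloured by known source. Masp1 (9833 bases, -1.25), F5, Hc and C3 lie low. Serpinc1 (8546 bases, 0.07) and F2 (4594 bases, -0.03) lie near 0. Klkb1 (5249 bases, 0.73) and most myeloid genes lie above 0. Lengths merge the exons of all annotated transcripts of a gene and can exceed that of its mRNA in liver.

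Among libraries with a positive length trend alone, more members were called lower. In CA against NC, 11 members were then lower in place of 5, and in Chol_CA against NC 8 in place of 4. Calls over all genes rose as well in that analysis: 1445 of 12421 were lower in CA against NC, in place of 581 of 12595, and 1489 in Chol_CA against NC, in place of 1178. C6, C8a, C8b, F11 and Mbl1 were among the 11, and Kng1, Serpinc1, F2 and Masp2 among the 8.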

How the data were processed

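The deposited table holds raw read counts per gene; per the submitters' processing notes, reads were aligned to mm10 with STAR 2.6.1c. Per the labels' protocols, stranded total RNA libraries were sequenced from 1 end with 50 bp reads; which strand was counted is not given in the sources used here. Of its value columns, 20 name an analysed diet and 3 matched no label and were not used. The 42 members were all found by name in GENCODE M21 (GRCm38), which gave coordinates and exon lengths. An exon length counts every base that lies in an exon of any annotated transcript of the gene. Promoters are RefSeq's (GRCm38.p6), listed for 32 of the 42.

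For each comparison edgeR 4.0.16 (under R 4.3.3) was run on the deposited counts (TMM, filterByExpr with a minimum count of 10, robust quasi-likelihood fit, 1 mean per diet over all 20 libraries), with Benjamini-Hochberg adjustment over the 12595 genes tested and a call at an adjusted p under 0.05. The fit was tested on simulated data. CPM values were computed here. Intervals and the floor of 3 reads cover counting error only.

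The members, gene lists and tests were chosen with earlier results of these data known. Named were the called members with the 6 largest rises and falls of each comparison, up to 2 per role that did not pass, and a fixed set including C1q, Cfd, C3, Hc, C9, F2, fibrinogen, Klkb1 and Serpinc1. C4a, Cfp and Saa2 values and the remaining members were given as further description after their values were seen. Alternatives were other size factors, no or a stricter filter (minimum count 50), DESeq2 1.42.0, a replicate block, only libraries with a positive length trend, a term for that trend, no genes overlapped on the opposite strand, only the diets compared, and each library left out.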

Additional observations from a re-analysis of the deposited data

Results flagged for a closer look

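Among 167 pairs of a member and a diet with 4 or 5 libraries, 17 had 1 library far from the others by Dixon's test; chance flags about 1 in 20 groups. In NC all 8 were library 3: C1qa at 25.1, C8g at 374, Cfd at 3.83, Cfp at 13.2, F5 at 378, F13b at 180.2, Proc at 857 and Klkb1 at 39.9 CPM. In HS library 0 stood low for C6 (180.4 CPM), C9 (336 CPM) and F13b (180.1 CPM). In CA library 0 stood apart for Masp1 (37.3 CPM), C5ar1 (3.29 CPM) and F10 (470.4 CPM), and library 1 for Serpinc1 (2703 CPM). In Chol_CA library 1 stood low for C6 (304 CPM) and held the only Cfd reads (0.229 CPM). NC library 3, HS library 0, CA library 0 and Chol_CA library 1 all have a negative length trend, whose part in these values was not tested.

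The effect of cholesterol differed between the cholic acid and the sucrose diets for 5 members, against 2.47% of all genes tested. The log2 difference was 2.75 for C6, 1.69 for C8b, 1.59 for F11, 1.38 for C8a and 0.53 for F7. All were higher with cholic acid in the test of the difference itself. The call was lost in 17 of 25 alternative analyses for C8b, 15 of 25 for F7 and 13 of 24 for C8a.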

How the results depend on the processing

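No called fold change of a member, and none of the C1q chains in HS_Chol against NC, reversed under an alternative; other uncalled differences were not followed under all of them, and that of C3 in Chol_CA against NC changed sign with only positive length trends (0.04 to -0.22). Counts of members called moved as follows. In HS_Chol against HS, the 1 member called lower became 0 with DESeq2 size factors in edgeR, with no filter, the stricter filter, the replicate block, only positive length trends, no overlapped genes or only the diets compared, and 5 with DESeq2; the 1 called higher (Cfd) became 0 with the stricter filter, which drops Cfd, and with only positive trends. For all genes the 82 lower became 84, 76, 59, 46, 81, 42, 101 and, with DESeq2, 154, and the 201 higher became 92 and 178. In HS_Chol against NC, the 1 called higher became 0 with the stricter filter and 3 with the replicate block, the trend term or only the diets compared. It became 4 with only positive trends and 5 with DESeq2, which also called 2 lower. Over all genes the 216 higher became 89, 218, 344, 172, 376 and 396 in that order. DESeq2 called 150 of all genes lower, in place of 71. In HS against NC, 1 (Cfp) was higher with only positive trends, where calls higher over all genes went from 27 to 186. In CA against NC, the 5 called lower became 11 with only positive trends, 2 with only the diets compared and 9 with DESeq2. Over all genes the 581 lower became 1445, 425 and 738 in those settings. In Chol_CA against NC, the 4 called lower became 8 with only positive trends or the trend term and 2 with only the diets compared. Over all genes the 1178 lower became 1489, 1646 and 701. In Chol_CA against CA, the 3 called lower became 8 with only positive trends and 1 with only the diets compared. The 983 lower over all genes became 1716 and 523. In the difference between cholesterol effects, the 5 called higher became 3 with no filter or the replicate block. They became 2 without overlapped genes or with only the diets compared. Called lower were 2 with only positive trends, 1 with the trend term and 1 with DESeq2. Over all genes the 311 higher became 209, 244, 164 and 241, and the 445 lower became 839, 568 and 634. Fewer genes or libraries enter several of these fits; otherwise the cause was not tested. Leaving out 1 library gave 0 to 0 higher and 0 to 0 lower (HS against NC), 1 to 3 and 0 to 0 (HS_Chol against NC; 3 without HS_Chol library 2 and 2 without NC library 3), 4 to 5 and 3 to 7 (CA against NC; 3 without NC library 2 or CA library 2 or 3), 7 to 8 and 4 to 5 (Chol_CA against NC), 1 to 1 and 0 to 1 (HS_Chol against HS; 0 without any 1 of HS libraries 0 to 3 or any HS_Chol library), 11 to 14 and 2 to 4 (Chol_CA against CA), and 1 to 7 and 0 to 0 (difference of cholesterol effects; 1 without HS_Chol library 1). The replicate block used the table's column numbers, which share only a number: over the pairs of diets the correlation of same-numbered libraries ran from -0.45 to 0.37, and in no pair of diets were all over 0.1. Calls over all genes also moved when 1 library was left out. In CA against NC the 581 lower became between 416 and 642. In the difference of cholesterol effects the 311 higher became 136 without HS_Chol library 1. Depth limits C5ar1, C3ar1, Cfb and Cfd, the members with the fewest reads.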

Other observations

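Of 23 other complement genes tested, from a list beside the 42 members, 4 rose and 4 fell in CA against NC, where 5.22% and 4.61% of all genes did. The largest falls were those of C4a (3.02 ± 0.51, log2) and C4bp (fell by 0.97 ± 0.15; adjusted p = 0.000272), a chain of the C4b-binding protein, which restrains the classical convertase. C4bp rose again by 0.92 ± 0.15 from CA to Chol_CA (adjusted p = 0.000299). The largest rises on CA were those of Itgb2 (2.19 ± 0.51; adjusted p = 0.00791), the chain shared by complement receptors 3 and 4, and Vsig4 (1.94 ± 0.32; adjusted p = 0.000488), a complement receptor of Kupffer cells. Both were also higher in HS_Chol than in NC, Itgb2 by 2.06 ± 0.54 (adjusted p = 0.0497) and Vsig4 by 1.48 ± 0.34 (adjusted p = 0.0214). In Chol_CA against NC, 5 of the 23 rose and 4 fell, where 15% and 9.35% of all genes did.

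Of 22 other clotting and fibrinolysis genes tested, 6 rose and 1 fell in Chol_CA against NC, against the same 15% and 9.35%. F13a1, the catalytic chain of factor XIII, known from macrophages and platelets, rose by 5.42 ± 1.05 (adjusted p = 0.000609), and Procr, the endothelial protein C receptor, by 5.37 ± 0.74 (adjusted p = 2.14e-05). The size of the F13a1 rise rests on few reads: it read 0, 0, 0 and 0.284 CPM on NC and 3.44, 8.12, 2.63 and 0.432 CPM on Chol_CA. Ggcx, the carboxylase that vitamin K-dependent factors need, fell by 0.55 ± 0.16 (adjusted p = 0.012).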
